A study of Mus musculus with 6 samples.

Results

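The granzymes and perforin of mouse killer lymphocytes were followed across 6 single-cell RNA-seq libraries: Gzma, Gzmb, Gzmc, Gzmd, Gzme, Gzmf, Gzmg, Gzmk, Gzmm and Prf1, 10 of the 32285 genes in the count matrices, chosen by their symbols. Each library came from 1 mouse, so no comparison between treatments had a replicate. The study's methods describe cells of orthotopic tumors formed by KPCA, a mouse ovarian cancer line proficient in homologous recombination, in female C57BL/6 mice of 6 to 8 weeks. The labels differ from this, with lymph node as the tissue and a design of young and aged mice.

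The control mouse received solvent and a control rat antibody. The 2DG mouse was injected with 2-deoxy-D-glucose, a glucose analog, at 500 mg/kg every 2 days once tumors could be felt on day 9. The 2FF mouse was given 2F-peracetyl-fucose, a fucose analog that blocks fucosylation, by gavage every 2 days, and its tumor cells had been kept in 300 µM 2FF for 3 days before they were implanted. The anti-PD-L1 mouse received an antibody that blocks PD-L1, the ligand of the PD-1 checkpoint receptor, after day 9 for 3 weeks at 5 mg/kg. The remaining mice, 2DG + anti-PD-L1 and 2FF + anti-PD-L1, received both agents, and all mice were sacrificed on day 30. Values below are given with the control library first, then 2DG, 2FF and anti-PD-L1, and last 2DG + anti-PD-L1 and 2FF + anti-PD-L1, unless libraries are named.

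Cytotoxic lymphocytes store granzymes, a family of serine proteases, and the pore-forming protein perforin in secretory granules, and release them together toward a bound target cell. Perforin opens the way into the target cell, where granzyme B cleaves caspases and granzyme A acts through other substrates. NK cells hold granzyme transcripts before they meet a target, whereas T cells acquire them after activation, and granzyme K is known from memory-like and exhausted T cells of tumors.

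Of the 10 genes, 6 lay in a row on chromosome 14. In GRCm38, with the GENCODE annotation, Gzme, Gzmd, Gzmg, Gzmf, Gzmc and Gzmb occupied chr14:56117626-56262260, a span of 144.6 kb, all on the minus strand. Gzma and Gzmk were on chromosome 13 (minus strand, 113093825 to 113100981 and 113171608 to 113225908), and Prf1 and Gzmm on chromosome 10 (plus strand, 61297833 to 61304680 and 79689020 to 79695261). The promoter stretches of the chromosome 14 genes are shown because these neighbours behaved unlike each other in the cells: Gzmb was found in many lymphocytes, and Gzmc to Gzmg in very few. Each stretch is 130 bases from RefSeq on GRCm38.p6, from 150 to 21 bases before the transcription start, 5′ to 3′ on the minus strand, with matches to the Runx core TGTGGT (or ACCACA on the other strand) and to the AP-1 motif TGANTCA in capitals. Gzmb lies at chr14:56262355-56262484, Gzmc at chr14:56234678-56234807, Gzmd at chr14:56132614-56132743, Gzme at chr14:56120646-56120775, Gzmf at chr14:56211428-56211557 and Gzmg at chr14:56159600-56159729.
Gzmb: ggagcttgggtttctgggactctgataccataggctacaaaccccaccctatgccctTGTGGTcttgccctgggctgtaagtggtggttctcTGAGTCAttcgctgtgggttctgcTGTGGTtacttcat
Gzmc: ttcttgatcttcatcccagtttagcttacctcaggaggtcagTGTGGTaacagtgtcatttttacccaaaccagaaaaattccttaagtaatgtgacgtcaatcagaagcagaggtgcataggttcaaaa
Gzmd: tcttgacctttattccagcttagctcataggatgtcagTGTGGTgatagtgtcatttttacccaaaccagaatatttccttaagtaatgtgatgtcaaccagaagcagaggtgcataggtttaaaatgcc
Gzme: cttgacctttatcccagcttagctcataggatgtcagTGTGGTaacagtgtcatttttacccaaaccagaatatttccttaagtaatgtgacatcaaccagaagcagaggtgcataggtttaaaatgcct
Gzmf: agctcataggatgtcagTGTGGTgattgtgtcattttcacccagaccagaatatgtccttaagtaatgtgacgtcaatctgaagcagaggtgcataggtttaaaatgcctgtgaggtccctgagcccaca
Gzmg: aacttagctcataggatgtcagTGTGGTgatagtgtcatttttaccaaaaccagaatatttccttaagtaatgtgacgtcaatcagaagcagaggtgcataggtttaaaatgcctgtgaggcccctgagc

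Gzmc to Gzmg were more like each other in these letters than like Gzmb. The stretches of Gzmd and Gzme were identical at 94.66% of aligned positions and the pairs among Gzmc to Gzmg ranged from 59.35% (Gzmc and Gzmf) up to that value, while Gzmb reached 40.91% to 47.86% against the other 5. The Runx core was in 8 of the 10 stretches, the 6 of chromosome 14 included, and in 7.473% of the 32851 promoters in the table. The AP-1 motif was in the Gzmb stretch alone of the 10 and in 3.817% of all promoters. The T-box motif GGTGTGA, searched on both strands, was in that of Gzmk alone and in 1.647% of all promoters. These are matches of letters, and the data hold no binding measurement.

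The likeness extends to the RNA that is counted. The 3′ kit reads the end of each transcript, and over the last 300 bases Gzmd, Gzme, Gzmf and Gzmg were 82.37% to 87.87% identical to each other, with unbroken shared runs of 49 to 72 bases. Gzmc had runs of at most 10 bases in common with them there. Counts of Gzmd, Gzme, Gzmf and Gzmg may therefore be uncertain as between these 4 genes. How single reads were placed was not examined. The sum over Gzmc to Gzmg is used where cells are described.

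Lymphocytes were gated cell by cell from the unique molecular identifiers (UMIs, each standing for 1 captured RNA molecule) of marker genes, none of them a granzyme or perforin. Only cells with at least 250 genes and at most 5% mitochondrial UMIs entered. The libraries held 61859753 to 73885214 UMIs, and 7703 to 9222 cells per library passed. The 5 gates took 367 cells (4.04%) of the control library and 1891 to 2754 (24.2% to 33.3%) of each other library, so control values rest on the fewest cells. Of the check genes outside the gates, Trac and Klra8 followed the labels. Trac, the alpha constant gene of the T cell receptor, had 386 to 531 CPM (counts scaled to the same total of 1000000 UMIs per sum) in CD8 T and 6 to 12 in NK cells. Klra8, an NK receptor, had 230 to 411 in NK and 0 to 2 in CD8 T cells. Other check genes were shared between classes. In control, Ikzf2 and Ctla4, taken as genes of regulatory T cells, were in 77.1% and 85.5% of CD4 T cells. Klrg1, taken as an NK gene, had 132.7 CPM in regulatory T and 80.6 in NK cells. Trbc2, of the alpha-beta receptor, was in 75.0% of gamma-delta T cells. The stroma genes Ccl21a, Ccl19, Glycam1 and Madcam1 of lymph nodes had 0 to 6 UMIs in a whole library. Libraries shared 16 to 34 cell barcodes in each of 15 pairs. No doublet caller was run, but cells with at least 2 UMIs over 5 B cell and myeloid markers were left out of all gates. Myeloid RNA remained in the gates. In control, S100a8 was in 19.8% of CD8 T and 25.95% of CD4 T cells, and Lyz2 in 20.7% and 18.3%. In CD8 T cells of 2DG + anti-PD-L1 they were in 0.65% and 11.8%. Whether doublets or free RNA gave these UMIs was not tested.

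NK cells held the highest levels of Gzma, Gzmb and Prf1 in every library. Levels are CPM of the UMIs summed over the cells of a class, not divided by gene length, since this kit gives 1 UMI per molecule whatever its length. Gzma, the tryptase-like granzyme A, reached 7987, 10525, 10479, 10302, 10774 and 10525 CPM in the 23, 262, 157, 295, 411 and 221 gated NK cells. In CD8 T cells (121, 1290, 1988, 1582, 1692 and 1101 cells) Gzma stood at 237.8, 225.5, 499.0, 303.8, 295.1 and 226.4 CPM. The NK and CD8 T values did not overlap.

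Gzmb, the caspase-cleaving granzyme B, came to 2561, 2373, 2943, 2178, 3196 and 3060 CPM in NK cells. In CD8 T cells it was lower in each library, at 510.0, 461.2, 966.7, 539.4, 745.9 and 799.7 CPM. Prf1, perforin itself, had 1364, 1769, 1682, 2000 and 1743 CPM in the first 5 NK sums and 1849 in that of 2FF + anti-PD-L1. Its CD8 T levels were 333.6, 375.0, 703.0, 607.6, 501.6 and 419.7 CPM, again with no overlap between the classes.

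**Figure D1:**
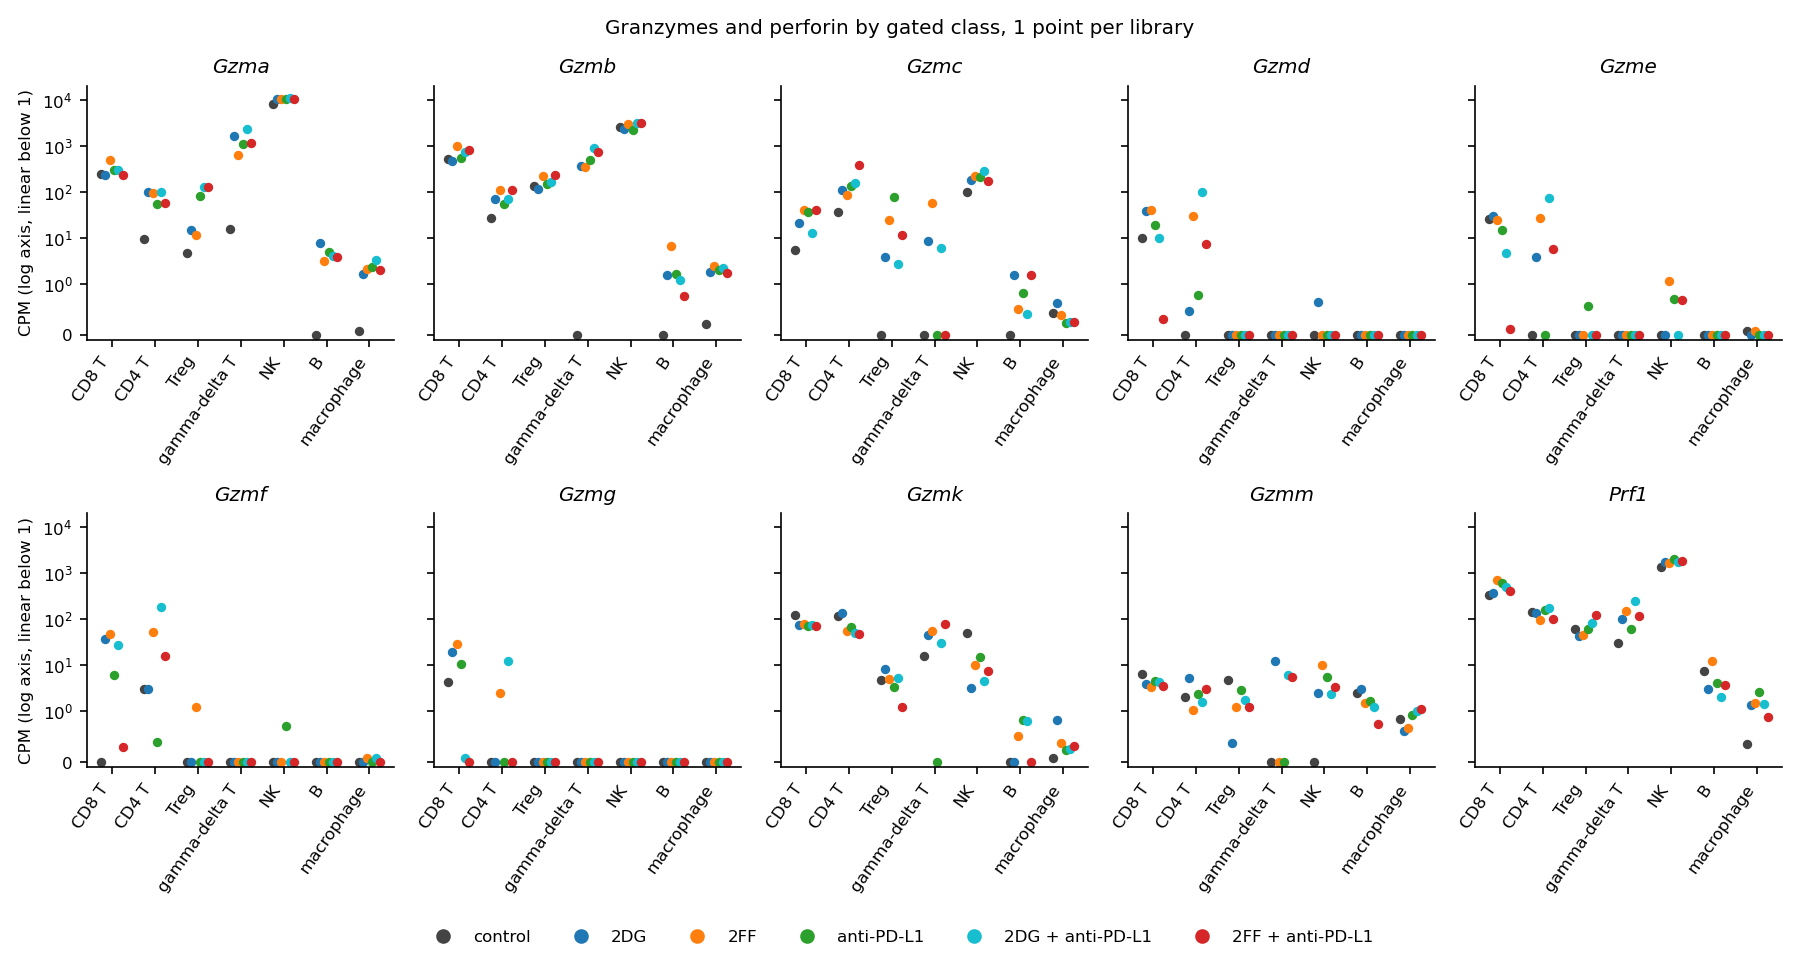
Level of each gene (CPM, log axis, linear below 1) in the 5 gated lymphocyte classes and in B cells and macrophages, with 1 point per library. Gzma, Gzmb and Prf1 are highest in NK cells, and Gzmk is higher in CD8 T than in NK cells in 6 of 6 libraries.

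The test between classes used UMIs summed per class and library, edgeR's quasi-likelihood method with the library as a block, and Benjamini-Hochberg adjustment over 10250 genes, so its spread is that between 6 mice that also differ in treatment. Of the 10 genes, 8 passed its filter on low counts, and Gzmg and Gzmm were not tested. Between CD8 T and NK cells 48.6% of all genes tested differed, and all 8 of the tested granzymes and perforin did, 4 in each direction. With 1 library left out the count was 5 to 7, and it was 5 without 2FF, where 6 members were tested, and without anti-PD-L1. Higher in NK cells in 6 of 6 libraries were Gzma (log2 fold change CD8 T over NK −5.17, SE 0.45, adjusted p = 2.781e-09), Gzmb (−2.11, SE 0.20, adjusted p = 1.612e-08), Prf1 (−1.89, SE 0.20, adjusted p = 6.374e-08) and Gzmc (−3.03, SE 0.42, adjusted p = 3.376e-06). Of the 1660 Gzmc UMIs of NK cells, 1482 lay in 26 of 1369 cells, which are described further on.

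Gzmk, a tryptase-like granzyme, had the opposite distribution. Its level was 122.7, 73.1, 78.3, 70.1, 76.1 and 71.8 CPM in CD8 T cells and 49.6, 3.16, 9.97, 14.7, 4.58 and 7.42 CPM in NK cells, where the control value stood for 8 UMIs. CD8 T cells were higher in 6 of 6 libraries (log2 fold change 3.11, SE 0.34, edgeR adjusted p = 7.469e-08). Gzmd, Gzme and Gzmf had at most 1.11 CPM in an NK sum and up to 46.7 CPM in a CD8 T sum, and were called higher in CD8 T cells (edgeR adjusted p = 0.04795, 0.02896 and 0.007876). The Gzmd call was lost when any 1 of the libraries was left out, that of Gzme without control, 2DG or anti-PD-L1, and that of Gzmf without anti-PD-L1. Without 2FF neither Gzme nor Gzmf was tested, and without 2DG + anti-PD-L1 Gzmf was not.

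Gamma-delta T cells, which carry the other T cell receptor and were few (12, 42, 26, 19, 35 and 31 cells), stood between both classes for Gzma. Their Gzma levels were 15.5, 1601, 621.3, 1084, 2330 and 1145 CPM, above CD8 T cells in 5 of 6 libraries, and the control value was 1 UMI. Between CD8 T and gamma-delta T cells 20.9% of genes differed, and among the 8 tested members 1 was higher in each class. Gzma was higher in gamma-delta T cells (log2 fold change CD8 T over gamma-delta T −1.90, SE 0.45, edgeR adjusted p = 0.003934), a call that was lost without the 2DG + anti-PD-L1 library.

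Prf1 went the other way. It had 31.0, 103.1, 148.3, 61.4, 254.2 and 115.6 CPM in gamma-delta T cells, below CD8 T cells in 6 of 6 libraries (log2 fold change 1.94, SE 0.33, edgeR adjusted p = 1.727e-04). For Gzmb the 2 classes overlapped, with 0 to 895.9 CPM in gamma-delta T cells (0.46, SE 0.26, adjusted p = 0.2285). The NK gene Txk had 583 to 829 CPM in gamma-delta T sums, against 934 to 1383 CPM in NK cells. Klra8 had 15 UMIs (106 CPM) in 3.85% of the 26 cells of the 2FF library, or 1 cell, 1 UMI in 2DG + anti-PD-L1 and 0 in the other 4. Whether they bear on the Gzma level there was not tested.

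Between NK and gamma-delta T cells 17.2% of genes differed. NK cells were higher in 6 of 6 libraries for Gzma (log2 fold change 3.27, SE 0.44), Gzmb (2.57, SE 0.25), Gzmc (4.15, SE 1.11) and Prf1 (3.84, SE 0.31), with edgeR adjusted p of 1.242e-05, 1.286e-07, 0.01075 and 7.666e-09. Gzmk alone of the 8 was called higher in gamma-delta T cells (NK over gamma-delta T −2.17, SE 0.68, edgeR adjusted p = 0.02933), on 0 to 14 UMIs a sum and in 4 of 6 libraries. That call was lost without 2FF, 2DG + anti-PD-L1 or 2FF + anti-PD-L1.

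CD4 T cells, which mostly help other cells, held less Gzma, Gzmb and Prf1 than CD8 T cells, and more Gzmc. Between CD8 T and CD4 T cells 24.4% of genes differed, and of the 8 tested members 3 were higher in CD8 T and 1 in CD4 T cells. Gzmb had 26.5, 68.0, 109.5, 52.6, 68.3 and 109.7 CPM in CD4 T cells, below CD8 T cells in each library (log2 fold change 3.21, SE 0.23, edgeR adjusted p = 4.27e-10). Gzma and Prf1 were higher in CD8 T cells in 6 of 6 libraries as well (log2 fold changes 2.14, SE 0.44, and 1.89, SE 0.21, with edgeR adjusted p = 7.699e-04 and 4.298e-07). Gzmd, Gzme and Gzmf were not called (edgeR adjusted p = 0.8982, 0.9658 and 0.6317), at up to 100.8, 71.4 and 181.7 CPM in a CD4 T sum and 38.9, 30.2 and 46.7 CPM in a CD8 T sum.

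Gzmk did not separate CD8 T from CD4 T cells. Its CD4 T levels were 118.1, 139.2, 56.0, 67.1, 49.4 and 47.1 CPM, higher than in CD8 T cells in the 2DG library only (log2 fold change CD8 T over CD4 T 0.14, SE 0.20, edgeR adjusted p = 0.6874). Gzmc, a granzyme best known from long-activated killer cells, was higher in CD4 T cells in 6 of 6 libraries. It had 35.6, 108.4, 86.7, 134.3, 157.7 and 373.9 CPM in CD4 T and 5.38, 21.03, 38.9, 35.7, 12.6 and 39.9 CPM in CD8 T cells (log2 fold change −2.48, SE 0.40, edgeR adjusted p = 6.537e-05). Much of this Gzmc lay in few cells, which are described further on. In CD4 T cells 50 cells held 2332 of 2522 Gzmc UMIs. In CD8 T cells 68 cells held 1259 of 1679.

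Regulatory T cells (Treg), the Foxp3-expressing suppressor subset, carried more Gzmb than the other CD4 T cells. Their Gzmb level was 135.8, 112.9, 222.2, 147.2, 164.8 and 235.7 CPM in 80, 370, 126, 257, 195 and 200 cells, above CD4 T cells in each library (log2 fold change CD4 T over Treg −1.20, SE 0.24, edgeR adjusted p = 5.519e-04). Between CD4 T and Treg cells 27.3% of genes differed, and of the 8 tested members 5 were higher in CD4 T and 1 in Treg cells. Gzmk showed the widest separation of the well-counted members, at 1.21 to 8.28 CPM in Treg against 47.1 to 139.2 CPM in CD4 T cells (3.96, SE 0.37, edgeR adjusted p = 1.833e-08). Gzmc (2.88, SE 0.52, edgeR adjusted p = 1.856e-04) and Prf1 (0.94, SE 0.25, edgeR adjusted p = 0.006722) were also lower in Treg cells, the latter in 5 of 6 libraries and not called without the 2DG library. Gzme and Gzmf, the other 2 calls, rested on at most 1 UMI in any Treg sum (edgeR adjusted p = 0.04078 and 0.007188). With 1 library left out, the Gzme call was lost in all 5 fits that tested it. That of Gzmf was lost in 1 of 4, the fit without anti-PD-L1.

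Shares of cells with a UMI separated NK from CD8 T cells, and both from CD4 T and Treg cells, but did not set gamma-delta T cells apart. With each cell thinned to 2000 UMIs, so that depth is equal, Gzma was found in 81.8% to 92.0% of NK cells, 5.57% to 13.7% of CD8 T cells, 1.02% to 3.36% of CD4 T cells and 0.385% to 2.89% of Treg cells. For Prf1 the thinned shares were 79.5% to 86.1% of NK, 32.7% to 52.5% of CD8 T, 9.50% to 15.6% of CD4 T and 4.39% to 9.66% of Treg cells. For Gzmb they were 71.0% to 82.6%, 28.8% to 44.2%, 4.03% to 8.28% and 11.9% to 20.3% in the same order of classes. The few gamma-delta T cells had 2.35% to 25.6% for Gzma, 0% to 27.7% for Gzmb and 5.09% to 21.8% for Prf1. These ranges overlapped that of CD8 T cells for Gzma, and those of CD4 T and Treg cells for each of the genes. B cells, which lack these genes, gave 0% to 1.51% for Gzma, 0% to 1.20% for Gzmb and 0.404% to 1.87% for Prf1. The thinned Gzma shares of CD4 T and Treg cells therefore overlapped or came near that background, and those of CD8 T and NK cells did not. Without thinning, Gzmb was found in 36.4% to 57.3% of CD8 T cells and 0% to 3.83% of B cells, whose median depths were 5942 to 8050 and 5023 to 6532 UMIs.

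Gzmm, a granzyme of innate lymphocytes, was near the limit of counting. It had 3.36 to 6.46 CPM in CD8 T cells, 0 to 9.97 CPM in NK cells and 0.753 to 3.0 CPM in B cells, and 6 to 50 UMIs in a CD8 T sum. The 5 gates held 18.6% to 54.2% of its UMIs in a library. For Gzma, Gzmb, Gzmk and Prf1 they held 78.5% to 87.2%.

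Other genes of the cytotoxic granule were compared between the same classes. A list of 19 of them covers the granule matrix, granzyme activation, granzyme inhibitors, release and death ligands, and 18 were tested. Between CD8 T and NK cells 4 were higher in CD8 T and 9 in NK cells, where 48.6% of all genes tested differed. The list's median log2 fold change was −0.29 beside 0.06 over all genes. Serpinb9 and Serpinb6b, inhibitors that guard the cell against its own granzymes, were far higher in NK cells, at 527.1 to 980.7 against 65.6 to 155.2 CPM for Serpinb9 and 327.7 to 465.4 against 44.0 to 73.6 CPM for Serpinb6b (log2 fold changes −3.14, SE 0.11, and −2.73, SE 0.11, with edgeR adjusted p = 7.581e-21 and 5.179e-19). Srgn, the proteoglycan that holds granzymes in the granule, differed by −0.52 (SE 0.10, edgeR adjusted p = 1.568e-04). Tnfsf10, the death ligand TRAIL, was higher in CD8 T cells, at 128.0 to 253.6 against 12.4 to 72.0 CPM (2.18, SE 0.15, edgeR adjusted p = 5.357e-13).

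In the other class comparisons the list leaned as follows. Against gamma-delta T cells, 7 of the 18 were higher in CD8 T cells and 2, Serpinb9 and Serpinb6b, in gamma-delta T cells (median 0.49 beside 0.09 over all genes). Against CD4 T cells 5 were higher in CD8 T and 3 in CD4 T cells (median 0.08 beside 0.01). Between CD4 T and Treg cells 9 were higher in CD4 T and 4 in Treg cells (0.33 beside 0.01), among them Fasl, the death ligand of the Fas receptor, at 63.7 to 82.0 against 3.53 to 10.1 CPM (log2 fold change 3.16, SE 0.18, edgeR adjusted p = 3.038e-16). Between NK and gamma-delta T cells 10 were higher in NK cells, and Tnfsf10 alone in gamma-delta T cells (0.52 beside 0.05). Of all genes tested 20.9%, 24.4%, 27.3% and 17.2% differed in these comparisons, in the same order.

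CD8 T cells were then divided by Havcr2, the gene of the exhaustion receptor TIM-3, and Tcf7, the transcription factor of stem-like T cells. Havcr2+ Tcf7- cells numbered 65, 548, 1139, 824, 927 and 598, and Tcf7+ Havcr2- cells 20, 190, 166, 147, 150 and 134. Among the 5 members tested, perforin and granzyme B had the largest differences between these subsets. Prf1 had 461.8, 605.2, 947.5, 837.5, 664.3 and 586.5 CPM in Havcr2+ Tcf7- cells and 86.3, 39.9, 64.5, 91.9, 80.8 and 50.1 CPM in Tcf7+ Havcr2- cells. Its log2 fold change was 3.38 (SE 0.15, edgeR adjusted p = 2.002e-09 over 8509 genes), and 34.0% of those genes differed.

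Gzmb stood at 669.5, 739.9, 1290, 751.6, 968.5 and 1135 CPM in Havcr2+ Tcf7- cells. In Tcf7+ Havcr2- cells it was at 345.3, 53.7, 123.4, 51.0, 111.5 and 118.0 CPM, and the control value came to 90.0% from 1 of 20 cells. Havcr2+ Tcf7- cells were higher in 6 of 6 libraries (log2 fold change 3.10, SE 0.39, edgeR adjusted p = 0.002241).

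**Figure D2:**
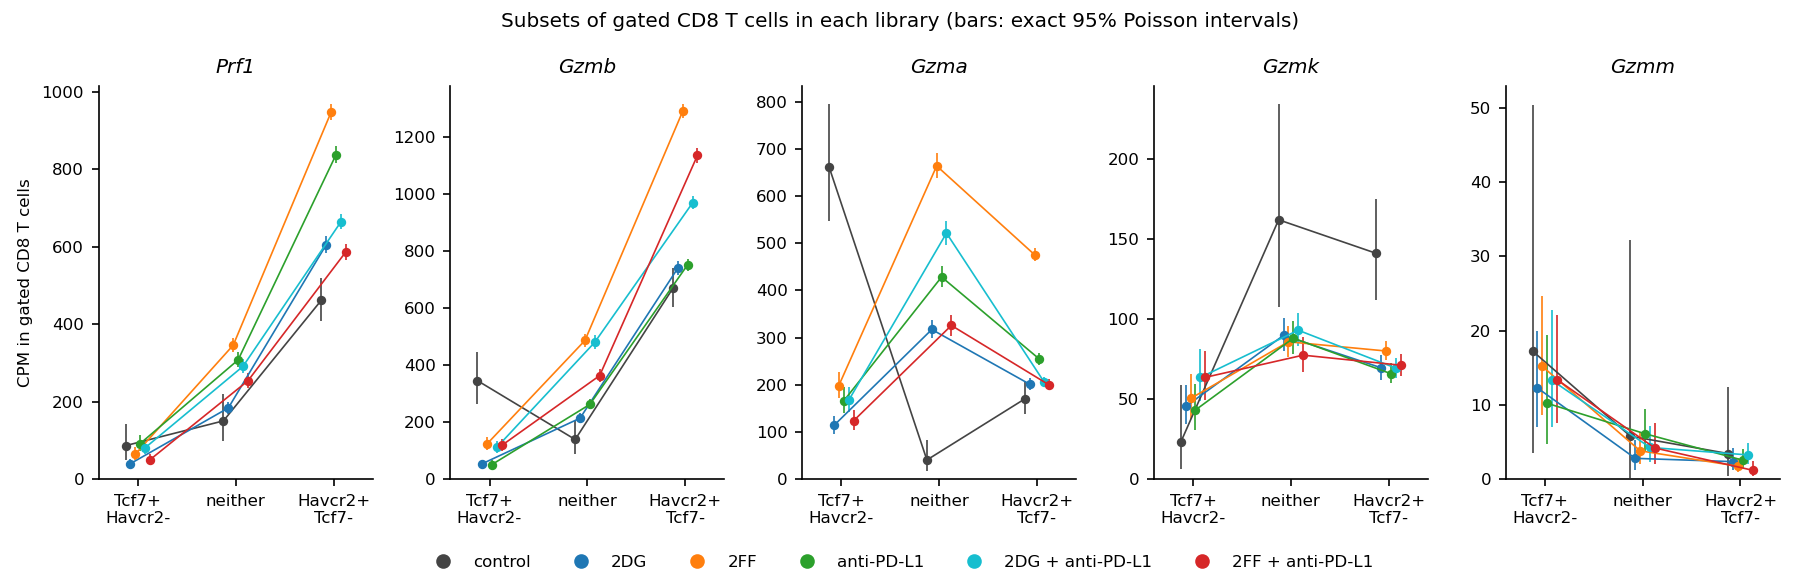
Level (CPM, linear axis from 0) of 5 genes in Tcf7+ Havcr2- cells, CD8 T cells in neither subset and Havcr2+ Tcf7- cells, with lines joining the values of 1 library and bars for exact 95% Poisson intervals. Prf1 and Gzmb are higher in the Havcr2+ Tcf7- subset in 6 of 6 libraries, Gzmm is lower in 6 of 6, and Gzma lines run both ways.

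Gzmm was the exception among the 5 members that could be tested there, with 3 higher in Havcr2+ Tcf7- cells and Gzmm higher in Tcf7+ Havcr2- cells. Its levels were 3.43, 2.35, 1.73, 2.54, 3.25 and 1.18 CPM in Havcr2+ Tcf7- cells and 17.3, 12.3, 15.2, 10.2, 13.3 and 13.4 CPM in Tcf7+ Havcr2- cells. The groups did not overlap (log2 fold change −2.60, SE 0.29, edgeR adjusted p = 1.021e-06), although a Tcf7+ Havcr2- sum held only 3 to 16 UMIs.

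Gzmk was only slightly higher in Havcr2+ Tcf7- cells, at 65.7 to 140.8 against 23.0 to 63.5 CPM (log2 fold change 0.47, SE 0.16, edgeR adjusted p = 0.03484), and the call was lost without the 2DG, 2FF or anti-PD-L1 library. Gzma did not separate the subsets, with 169.9, 201.1, 475.6, 254.2, 205.0 and 199.4 against 661.8, 113.6, 198.3, 165.6, 166.7 and 123.4 CPM (0.37, SE 0.41, edgeR adjusted p = 0.5584). The control value of 661.8 CPM came to 84.4% from 1 cell, and without the control library Gzma was called higher in Havcr2+ Tcf7- cells (0.70). Gzmc to Gzmg were not tested, and over the 6 libraries they had 1515, 1188, 830, 1372 and 679 UMIs in Havcr2+ Tcf7- cells against 6, 1, 1, 1 and 0 in the fewer Tcf7+ Havcr2- cells (4101 and 807 cells).

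Of the granule list 9 genes of 17 were higher in Havcr2+ Tcf7- cells and 1, Lamp1, a membrane protein of lysosomes, in Tcf7+ Havcr2- cells (median 0.36 beside 0.01 over all genes). Over all genes tested 34.0% differed between the subsets. Cst7, the inhibitor of granzyme-activating cathepsins, stood at 202.5 to 258.8 against 51.8 to 107.4 CPM (log2 fold change 1.18, SE 0.09, edgeR adjusted p = 1.001e-08). Nkg7, a granule membrane protein, had 1722 to 2865 against 725.0 to 1164 CPM (1.16, SE 0.07, edgeR adjusted p = 1.18e-10). Lamp1 had 37.1 to 51.1 against 68.8 to 120.8 CPM (−0.81, SE 0.11, edgeR adjusted p = 1.738e-05).

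How evenly a gene was spread over cells set the family apart from within. In CD8 T cells Prf1 UMIs lay in 5324 of 7774 cells, and the 1% of cells with the most held 9.14% to 14.8% of them in a library. Gzmk lay in 2415 cells with 11.3% to 13.2% of UMIs in the top 1%, and Gzmb in 4053 cells with 15.2% to 22.4%. Gzma lay in 1145 cells, 12.2 to 31.6 UMIs in each on average, and its top 1% held 30.9% to 46.2%. Gzmd, Gzme, Gzmf and Gzmg were found in 56, 52, 59 and 25 of the 7774 cells, and where present at least 98.5% of their UMIs lay in the top 1%. With so few positive cells such a share is fixed by rarity, and is no separate sign of uneven spread. Gzmc, in 262 cells, had 40.0% to 86.8% of UMIs in the top 1%. Gzmm, in 178 cells, had 44.0% to 69.6% there, at only 1.11 to 1.5 UMIs per positive cell. Both Gzmb and Prf1 were in 3307 cells, or 81.6% of the Gzmb cells and 62.1% of the Prf1 cells. These shares were not thinned, and each gene was frequent by itself (Prf1 in 5324 and Gzmb in 4053 of the 7774 cells). Whether the overlap exceeds what these frequencies and depth give was not tested.

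**Figure D3:**
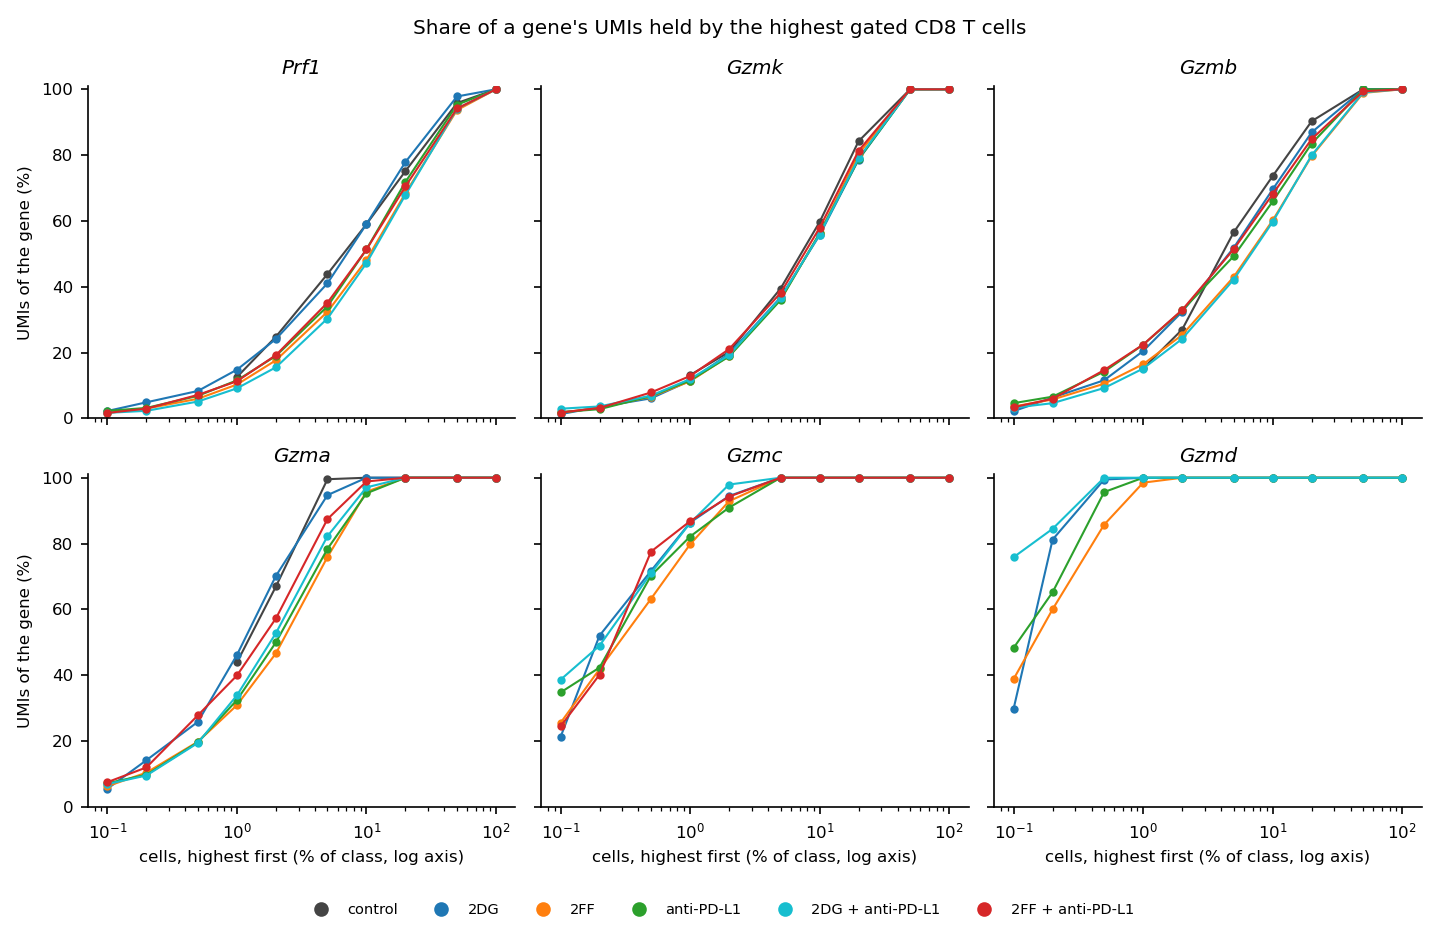
Share of a gene's UMIs (%) held by the CD8 T cells with the most of it, against the share of cells (%, log axis), with 1 line per library. The 6 panels are Prf1, Gzmk, Gzmb, Gzma, Gzmc and Gzmd, and the Gzmd lines reach at least 98.5% of UMIs within the top 1% of cells, while Prf1 stands at 9.14% to 14.8% there. A gene found in about 1% of cells or fewer, as Gzmd is, reaches such a share by rarity alone.

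Gzma in CD8 T cells was carried by a small group. Cells with at least 10 Gzma UMIs, a limit chosen after the concentration had been seen, were 493 of 7774, and held 90.1% of 18251 UMIs. They made up 4 (3.31%), 54 (4.19%), 173 (8.70%), 99 (6.26%), 102 (6.03%) and 61 (5.54%) of the CD8 T cells of the libraries, with Clopper-Pearson intervals from 3.16% to 5.43% in 2DG to 7.50% to 10.0% in 2FF. These intervals cover counting error over the cells of 1 mouse and do not set treatments apart. Their depth was no greater than that of the others, with median UMIs of 5268 against 6393.

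These Gzma-high cells differed from other CD8 T cells in Gzmb, Prf1 and Gzmk. At 2000 UMIs, 76.6% of them had Gzmb against 34.9% of other CD8 T cells, 54.4% against 43.8% had Prf1 and 22.9% against 12.8% had Gzmk. Of the neighbours of Gzmb, Gzmc was about as frequent as elsewhere, with 66 UMIs in 20 cells, or 1.61% against 1.41%. Gzmd had 1 UMI, Gzmf 4 and Gzme and Gzmg none in all 493. These 4 genes were rare in the other CD8 T cells too, at 0.55%, 0.48%, 0.47% and 0.21% for Gzmd, Gzmf, Gzme and Gzmg. The genes whose thinned shares differed most, picked after their values were seen and given as a description, included Klf2 (34.9% against 10.6%), a factor of recirculating lymphocytes, Cx3cr1 (29.4% against 10.6%), the fractalkine receptor of effector cells, Zeb2 (65.2% against 44.2%), Il18rap (50.5% against 24.8%) and Serpinb9 (32.7% against 14.5%). Lower were Tox (41.9% against 70.5%), a factor of exhausted T cells, Ctla4 (40.6% against 60.7%) and Ikzf2 (14.1% against 30.5%). Some of the higher genes are also genes of NK cells. Zeb2 and Klf2 were in 64.0% and 53.1% of thinned NK cells without much Gzmc to Gzmg. Serpinb9 was higher in NK than in CD8 T sums, as given above. Gzmk went the other way, at 1.42% of those NK cells. Whether NK-like T cells or NK cells inside the CD8 T gate are part of the Gzma-high group was not tested.

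Gzmc to Gzmg came from a still smaller group. Cells with at least 10 UMIs of the 5 genes together were 68 of 7774 CD8 T cells, and held 90.3% of 5845 UMIs, with up to 634 UMIs in 1 cell. They numbered 1, 9, 25, 15, 12 and 6, or 0.826%, 0.698%, 1.26%, 0.948%, 0.709% and 0.545% of the CD8 T cells, and the intervals of all 6 shares overlapped (0.0209% to 4.52% in control). Of the 68 cells, 22 held 1 of the 5 genes, 16 held 2 of them, 10 held 3 of them, 8 held 4 of them and 12 held all 5. Gzmc was in 53, Gzmd in 37, Gzme in 35, Gzmf in 30 and Gzmg in 21. Over all CD8 T cells, the 25 with a Gzmg UMI all had Gzmd as well, 2 of the genes with long shared runs at the transcript end. Whether reads were split between them was not tested.

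The 68 cells were rich in Gzmb and Prf1, while Gzma and Gzmk were less frequent in them than in other CD8 T cells. Some traits were shared with the Gzma group. At 2000 UMIs Gzmb was more frequent in both groups than in the other CD8 T cells, and Tox was less frequent in both. Gzmb was in 67, Prf1 in 67, Havcr2 in 63 and the cell cycle genes Mki67 or Top2a in 42. These counts were not thinned. Of all 7774 CD8 T cells, Gzmb was in 4053, Prf1 in 5324 and a cell cycle gene in 3419. Havcr2 was in 4101 of them without and in 133 with a Tcf7 UMI. For Havcr2 and the cell cycle genes no share at equal depth was computed. Gzma was in 7, and at 2000 UMIs its share was 5.69% against 11.0% of other CD8 T cells, while that of Gzmk was 5.44% against 13.5%. They were deeper than the rest, with median UMIs of 11933 against 6324, and 27 of the 68 were among the 5% deepest CD8 T cells of their library. The part of depth or doublets in these values was not tested beyond the thinning.

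**Figure D4:**
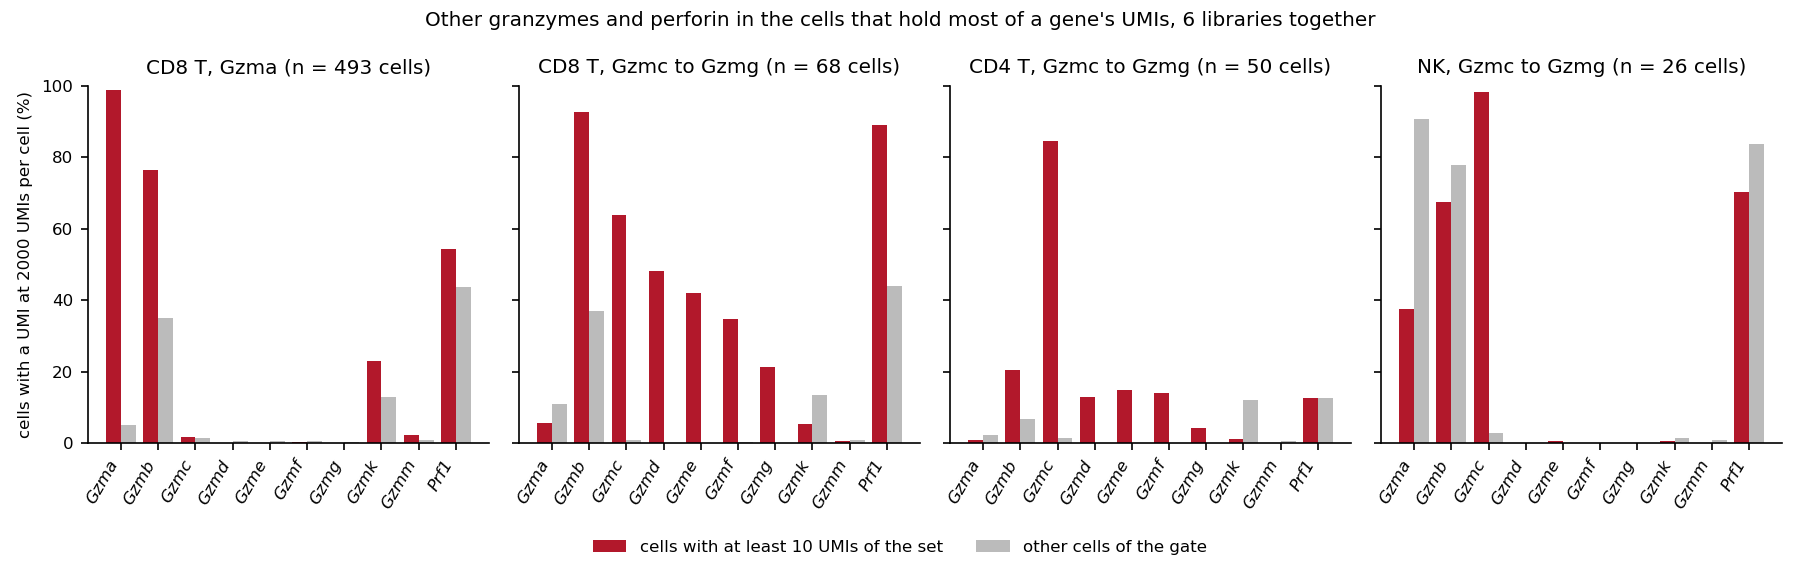
Thinned share (%) of cells with a UMI of each gene in cells with at least 10 UMIs of Gzmc to Gzmg, or of Gzma, and in the other cells of the same class. Gzmb and Prf1 are at 92.6% and 89.1% in the Gzmc-to-Gzmg cells of the CD8 T class and Gzma is at 37.5% in those of NK cells, against 90.8% in other NK cells.

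By genes picked after their values were seen, the CD8 T cells with much Gzmc to Gzmg held more Myo10 (71.5% against 18.9% of cells at 2000 UMIs), an unconventional myosin, more Tnfrsf9 (61.0% against 22.9%), the costimulatory receptor 4-1BB, more Il1r2 (41.9% against 7.50%), a decoy receptor of interleukin-1, and more Il2ra (36.8% against 5.62%), the high-affinity interleukin-2 receptor chain. They held less Tox (27.6% against 69.0%) and less Runx1 (40.3% against 72.6%), a factor of the family that binds the Runx core. Each of these differences had the same direction in 5 of the 5 libraries with at least 3 such cells. The genes were picked by their differences in these same cells, so this agreement is no independent support.

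In CD4 T cells the same sum marked cells in which Gzmb was more frequent than in other CD4 T cells, and Prf1 was not. A smaller share of them held Gzmb or Prf1 than in the CD8 T class. Cells with at least 10 UMIs of Gzmc to Gzmg were 50 of 2352 (2, 11, 7, 8, 10 and 12 per library) and held 94.4% of 3889 UMIs. Gzmc was in 45 of them and 35 held 1 of the 5 genes. With cells thinned to equal depth, Gzmb was in 20.4% of them against 6.66% of other CD4 T cells. The thinned shares of Prf1 were 12.57% against 12.56%. Without thinning, Gzmb and Prf1 were in 16 and 11 of the 50. Among genes picked after their values were seen they held more Il1r2 (56.4% against 19.0%) and Il2ra (42.0% against 15.0%), as their CD8 T counterparts did, more Tnfsf11 (54.6% against 16.6%), the RANK ligand, and less Ccl5 (11.9% against 57.2%), a chemokine of cytotoxic cells, and Nkg7 (45.3% against 69.5%).

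In NK cells they were 26 of 1369 and held 89.1% of 1665 UMIs, nearly all of them Gzmc. Gzmc was in all 26, with 1482 UMIs, while Gzmd, Gzmf and Gzmg had none there and Gzme 1. Gzma was in 10 of the 26, or 37.5% at 2000 UMIs against 90.8% of the other NK cells. A smaller share of these cells thus held Gzma, but the 10 that did held 1403 UMIs of it. The 26 cells were deeper than the other NK cells, with median UMIs of 10391 against 5090. Ctla4 (61.6% against 13.9%), Ly6a (55.2% against 8.58%) and Thy1 (55.9% against 12.6%) were higher and Itga2 (4.91% against 54.3%), the CD49b integrin of conventional NK cells, Zeb2 (15.4% against 64.0%) and Klf2 (12.7% against 53.1%) lower, all picked after their values were seen. The NK gate allowed no UMI of Cd3d, Cd3e or Cd3g.

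Gzmb and Gzmk, sometimes used to mark separate T cells, were not exclusive here. Among CD8 T cells Gzmb was found in 57.1%, 52.6%, 67.2%, 58.5%, 57.7% and 60.9% of cells with a Gzmk UMI. In those without it the shares were 25.3%, 38.5%, 52.9%, 46.5%, 53.2% and 51.3%, lower in 6 of 6 libraries. The Clopper-Pearson intervals, which cover counting error over cells only, did not overlap in 5 of 6 libraries, 2DG + anti-PD-L1 being the other. Median depths of the compared cells were 6227 to 8505 and 5847 to 7821 UMIs, and the cells with Gzmk were the deeper ones in 5 of 6 libraries.

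Likeness across the 30 sums of 5 classes and 6 libraries is given as a description since classes and libraries recur in the points. By Pearson's r of log2(CPM + 5) among 9384 genes, Gzma was most like Klra3 (0.93), an NK receptor, Serpinb9 (0.93) and Spry2 (0.92). Prf1 was most like Lrrk1 (0.93), Adamts14 (0.92) and Efhd2 (0.90), and Gzmb like Gem (0.88), Itgax (0.88) and Lrrk1 (0.87), so that Lrrk1 was among the 3 genes of both. Gzmk followed Gtf2i (0.87), Rpa2 (0.83) and Adgrg1 (0.79), and Gzmc followed Plscr1 (0.81), Smim3 (0.78) and Nfatc1 (0.76). Gzmm had too few UMIs for this measure.

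Between treatments the values compare 1 mouse with 1 mouse, and their intervals cover counting error only. A gene is called here when the ratio of CPM + 5 passes 2-fold and the 2 libraries together hold at least 50 UMIs. The control library enters 3 of the comparisons and the anti-PD-L1 library 3, so these are not independent. The abundant genes of CD8 T cells, Gzma, Gzmb and Prf1, were highest in the 2FF library. Against control, 2FF had 2.10-fold more Gzma (log2 1.07, counting interval 0.88 to 1.27), 2.11-fold more Prf1 (1.08, 0.91 to 1.24) and a Gzmb ratio of 0.92 on the log2 scale (0.79 to 1.06). Of the 221 control Gzma UMIs, 1 cell held 43.9% and 6 of 121 cells 99.6%. The interval does not cover which cells were sampled. Of the 10 genes, 6 passed 2-fold upward and none downward, where 3.16% of all genes passed in either direction.

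The thinned shares of CD8 T cells gave the same picture for the abundant genes. Gzmb was found in 28.8%, 28.8%, 44.2%, 33.8%, 40.8% and 37.4% of cells at 2000 UMIs. Prf1 was found in 33.8%, 32.7%, 52.5%, 46.5%, 45.5% and 40.4%. Gzma was found in 5.57%, 7.02%, 13.7%, 12.4%, 11.2% and 8.71%, so control and 2DG were the lowest for each of the 3 genes and 2FF the highest.

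For 2DG against control 4 of 9 genes passed 2-fold, all upward, beside 2.80% of all genes, and for anti-PD-L1 against control 2 of 10, both upward, beside 3.55%. In both cases only Gzmc, Gzmd, Gzmf or Gzmg were called. Gzma, Gzmb and Prf1 differed little between 2DG and control, with log2 ratios of −0.08 (counting interval −0.28 to 0.13), −0.15 (−0.28 to −0.0055) and 0.17 (0.0011 to 0.34). In the anti-PD-L1 library Prf1 was higher than in control by 0.87 (0.70 to 1.03) without reaching 2-fold, and Gzmb by 0.08 (−0.05 to 0.22). Gzmk was lower than in control in all 3 single-agent libraries, by log2 ratios of −0.75, −0.65 and −0.81 for 2DG, 2FF and anti-PD-L1, on 114 control UMIs.

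Genes called between a combination and its single agents were mostly lower in the combination, and most were among Gzmc to Gzmg. For 2FF + anti-PD-L1 over 2FF, 5 of 10 genes passed 2-fold downward and none upward, beside 0.532% of all genes. They were Gzma (log2 ratio −1.14, counting interval −1.21 to −1.07), Gzmd, Gzme, Gzmf and Gzmg. Prf1 changed by −0.74 (−0.80 to −0.69) and Gzmb by −0.27 (−0.31 to −0.23) in the same comparison. For 2FF + anti-PD-L1 over anti-PD-L1, 4 of 10 passed downward (Gzmd, Gzme, Gzmf and Gzmg) beside 0.660%, while Gzmb had a ratio of 0.57 (0.52 to 0.62) and Prf1 of −0.53 (−0.59 to −0.48).

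For 2DG + anti-PD-L1 over anti-PD-L1, Gzmf passed upward and Gzmc, Gzme and Gzmg downward, 4 of 10 beside 0.700%. For 2DG + anti-PD-L1 over 2DG, Gzmd, Gzme and Gzmg passed downward and none upward, 3 of 10 beside 0.966%. Gzmb was higher in 2DG + anti-PD-L1 than in either single agent, by log2 ratios of 0.47 (counting interval 0.42 to 0.52) over anti-PD-L1 and 0.69 (0.64 to 0.75) over 2DG. By the CD8 T levels given above, Gzma and Prf1 were higher in 2DG + anti-PD-L1 than in 2DG and lower than in anti-PD-L1. None of the abundant genes passed 2-fold in these 2 comparisons.

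**Figure D5:**
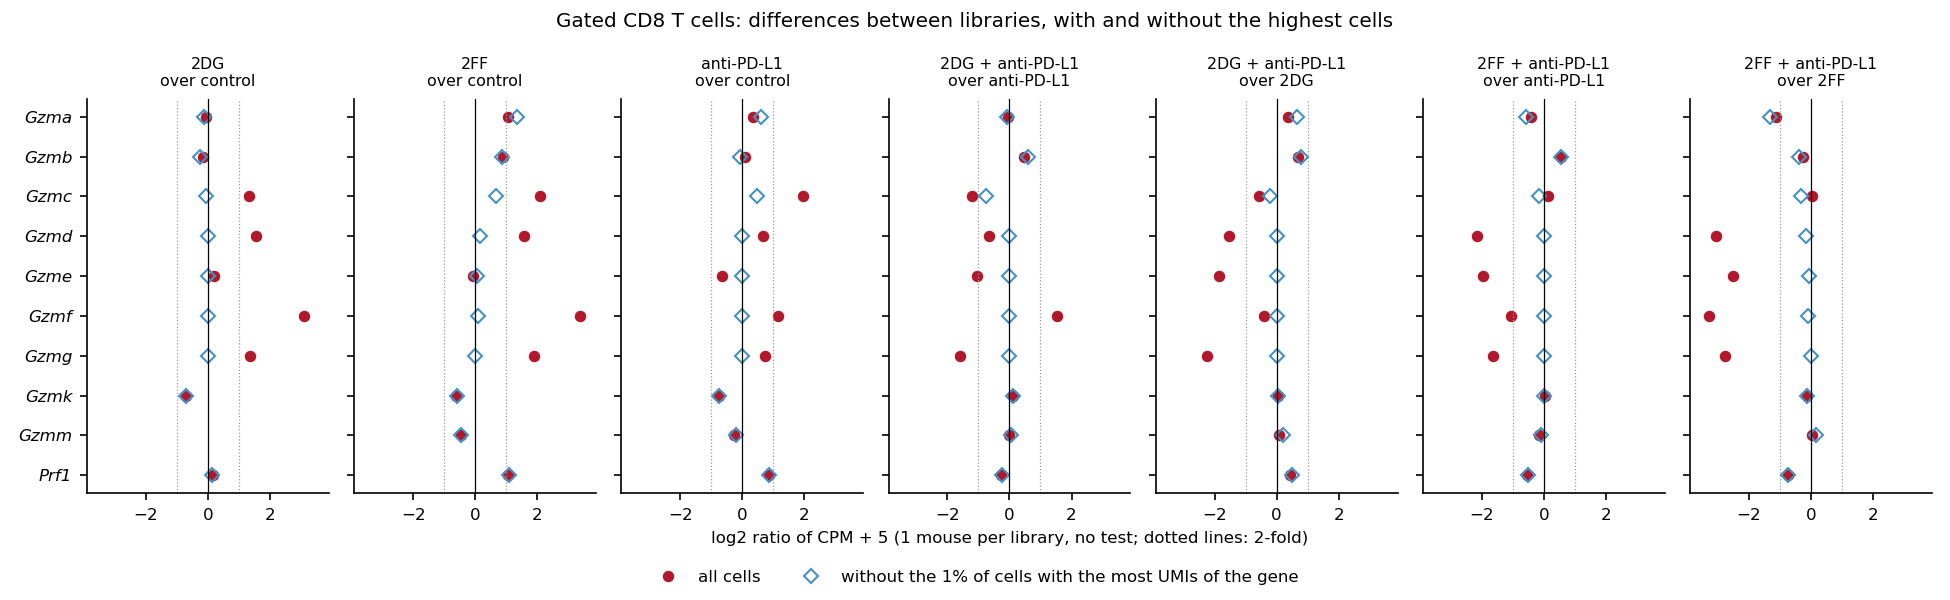
Log2 ratio of CPM + 5 of each gene in CD8 T cells in the 7 comparisons between libraries, over all cells and without the 1% of cells with the most UMIs of that gene, with dotted lines at 2-fold. The calls of Gzmc to Gzmg move inside the lines when these cells are left out.

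The calls of Gzmc to Gzmg between libraries rested on the few cells described above. In the 2FF library Gzmd had 38.9 CPM from 533 UMIs and in 2FF + anti-PD-L1 0.298 CPM from 3 UMIs, while the cells with at least 10 UMIs of the 5 genes were 25 and 6. With the 1% of cells highest for each gene left out, the 4, 6, 2, 4, 3, 4 and 5 calls of the 7 comparisons became 0, 2, 0, 0, 0, 0 and 1. Those left were Gzma and Prf1 for 2FF over control and Gzma for 2FF + anti-PD-L1 over 2FF. In the control library this 1% was 1 cell. Such a cut removes nearly all UMIs of Gzmd to Gzmg by construction.

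Of the 17 or 18 genes of the granule list with enough UMIs in CD8 T cells, at most 1 passed 2-fold in any of the 7 comparisons. Over all genes 0.532% to 3.55% passed, so such a count is near the background. The genes that passed were Serpinb9b (10.3 CPM in 2FF against 2.15 in control and 2.59 in 2FF + anti-PD-L1) and Serpinb9, at 155.2 CPM in 2DG + anti-PD-L1 and 67.4 CPM in 2DG. The list's median log2 ratio lay between −0.04 and 0.20, beside −0.07 to 0.03 over all genes.

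In CD4 T cells Gzmk was the gene with the clearest difference in number of cells. It was found in 38.2%, 42.6%, 16.4%, 19.5%, 13.2% and 15.1% of them, and at 2000 UMIs in 18.0%, 20.4%, 8.39%, 10.2%, 6.82% and 6.88%. Control and 2DG were the high libraries, above each of the other 4. Against control the 2FF library passed 2-fold downward for Gzmk (log2 ratio −1.08, counting interval −1.43 to −0.72), while 6 of the 8 genes with enough UMIs passed upward, beside 4.09% of all genes in either direction. The 2DG library passed upward for Gzma, Gzmb and Gzmc, 3 of 5 beside 2.81%, and the anti-PD-L1 library for Gzma and Gzmc, 2 of 5 beside 3.11%, where control had 9 Gzma UMIs. For 2DG + anti-PD-L1 over 2DG, Gzmk passed downward (−1.49, −1.78 to −1.21) and Gzmd, Gzme and Gzmf upward, 4 of 8 beside 3.24%. The last 3 genes had 257, 182 and 463 UMIs in 2DG + anti-PD-L1 CD4 T cells, where 10 cells held 98.1% of the UMIs of Gzmc to Gzmg. The same 3 genes passed upward against anti-PD-L1, 3 of 8 beside 1.58%. For 2FF + anti-PD-L1 over anti-PD-L1 Gzmc alone passed, upward (log2 ratio 1.48, 1.30 to 1.66), 1 of 5 beside 0.845%. Over 2FF, Gzmc passed upward (2.11, 1.91 to 2.31) and Gzmd, Gzme and Gzmf downward, 4 of 8 beside 0.877%.

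In NK cells the abundant members spanned narrow ranges. Leaving aside the control library with 23 cells, Gzma ranged from 10302 to 10774 CPM, Prf1 from 1682 to 2000 CPM and Gzmb from 2178 to 3196 CPM. Only Gzma, Gzmb, Gzmc and Prf1 had enough UMIs. None of these 4 passed 2-fold in the comparisons of combinations with single agents, in which 1.81%, 1.81%, 1.22% and 1.16% of all genes did, so a count of 0 is near that background. Against control Gzmc passed upward for 2FF (log2 ratio 1.11, counting interval 0.38 to 1.95) and anti-PD-L1 (1.07, 0.34 to 1.89), on 16 control UMIs, and none of the 4 passed for 2DG, beside 8.06%, 10.3% and 9.02% of all genes.

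In Treg cells Gzma was low in control, 2DG and 2FF (4.68, 14.3 and 11.2 CPM) and higher in the 3 libraries with anti-PD-L1 (79.8, 125.2 and 125.7 CPM), but at 2000 UMIs its share was 1.81%, 1.28% and 1.91% of cells in the latter and 0.385%, 0.783% and 2.89% in the former. The higher levels thus lay in few cells, with 142, 142 and 208 UMIs in all, in a class of 195 to 257 cells. For 2FF + anti-PD-L1 over 2FF, Gzma and Prf1 passed upward, 2 of 3 beside 1.78% of all genes, and over anti-PD-L1 Gzmc passed downward, 1 of 4 beside 1.12%. For 2DG + anti-PD-L1, Gzma passed upward over 2DG, 1 of 3 beside 1.72%, and Gzmc downward over anti-PD-L1, 1 of 4 beside 2.78%. Against control, anti-PD-L1 passed upward for Gzma and Gzmc, 2 of 4 beside 3.41%, and none of the 2 genes with enough UMIs passed for 2DG or 2FF, beside 3.15% and 4.13%.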

How the data were processed

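Single-cell libraries of 6 mice were made with the 10x Genomics 3′ kit v3.1. What the authors deposited are UMI counts without any normalization, made on mm10 with Cell Ranger 7.0.0 per the file headers and the study's methods, whereas the submitters' processing notes name version 3.1.0. Whether intronic reads were counted is not given in the sources used here. Those counts carry no limit on genes or mitochondrial UMIs, so the study's limits (250 genes, 5%) were applied here.

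The members, lists and tests were chosen with earlier results of these data known. Gates used fixed marker genes and raw UMIs (at least 2 over Cd3d, Cd3e and Cd3g for T cells, at least 2 over Ncr1, Klrb1c and Klre1 for NK cells), and cells with at least 2 UMIs over Cd79a, Ms4a1, Csf1r, Csf3r and Siglech were left out. B cells, macrophages, neutrophils and plasmacytoid dendritic cells served as the background of free RNA. Cell names assigned in the study were not taken up, so classes can differ from those of the paper. Named were all 10 members, the granule list, the gate and check genes, and the 3 genes most like each well-counted member. Genes of the cells with at least 10 UMIs were picked after their values were seen.

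UMIs were summed per class and library and given as CPM with exact Poisson intervals. Ratios have exact conditional intervals, shares have Clopper-Pearson intervals, all at 95%, and shares were also computed with cells thinned to 2000 UMIs. With 1 mouse per group no test between treatments was made. Classes were compared with edgeR 4.0.16 (R 4.3.3; filterByExpr, TMM, quasi-likelihood F-test, sums of at least 10 cells, Benjamini-Hochberg adjusted p under 0.05), with DESeq2 1.42.0 as an alternative. Whether the mice are separate animals follows from the study's methods. Tested on simulated data, the class test (CD8 T against NK, 9965 genes) recovered 77% of 2-fold and 100% of 4-fold changes and the subset test (8510 genes) 77% and 85%, with 3.80% and 6.90% of their calls false. The simulation changed only well-counted genes and gave all genes the same dispersion. Its rates therefore do not cover members whose UMIs lie in few cells. Alternatives covered cell filters, gates, depth, pseudocount, UMI minimum, the highest cells and each library left out in turn. Positions and transcripts came from GENCODE M21 on GRCm38, the assembly mm10 names, and promoters from RefSeq on GRCm38.p6, in which all 10 genes matched.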

Additional observations from a re-analysis of the deposited data

Results flagged for a closer look

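In 4 comparisons between libraries a gene passed 2-fold in opposite directions in 2 gated classes, 5 cases in all. The values are log2 ratios of CPM + 5, and with 1 mouse per group the differences were not tested. For 2FF + anti-PD-L1 over 2FF, Gzma was at −1.12 in CD8 T cells (2277 against 6836 UMIs) and at 3.01 in Treg cells (208 against 9 UMIs). For 2FF + anti-PD-L1 over anti-PD-L1, Gzmc was at 1.44 in CD4 T cells (1009 against 350 UMIs) and at −2.31 in Treg cells (19 against 137 UMIs). For 2DG + anti-PD-L1 over 2DG, Gzmd was at −1.53 in CD8 T cells and 4.28 in CD4 T cells, and Gzme at −1.88 and 3.11. For 2DG + anti-PD-L1 over anti-PD-L1, Gzme was at −1.04 in CD8 T cells (53 against 164 UMIs) and 3.93 in CD4 T cells (182 against 0 UMIs). In the 2DG + anti-PD-L1 library 10 CD4 T cells held 98.1% of the UMIs of Gzmc to Gzmg.

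Outside the 5 gates, cells with at least 10 UMIs of Gzmc to Gzmg were also found, 13 in 2DG, 9 in 2FF, 9 in anti-PD-L1, 8 in 2DG + anti-PD-L1 and 12 in 2FF + anti-PD-L1, and 0 of 8708 such cells in control, which allows a share of up to 0.0345%. The ungated cells differed in kind, with 2578 neutrophils in control and 146 to 257 in each other library. The control count therefore does not compare like cells. Of the 51 cells with at least 10 UMIs, 37 had a Gzmb UMI, 33 a Prf1 UMI and 30 a cell cycle UMI.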

How the results depend on the processing

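Between treatments the called genes were counted under 15 alternatives in each of the 7 comparisons, and 92 of 105 counts stayed within 1.5 times the reported one. Without the 1% of cells highest for each gene, the calls fell to 0 for 2DG over control, 2 for 2FF over control, 0 for anti-PD-L1 over control, 0 for 2DG + anti-PD-L1 over anti-PD-L1, 0 for 2DG + anti-PD-L1 over 2DG, 0 for 2FF + anti-PD-L1 over anti-PD-L1 and 1 for 2FF + anti-PD-L1 over 2FF. Without the 5% deepest cells they were 2 for 2DG over control, 2 for 2DG + anti-PD-L1 over anti-PD-L1 and 0 for 2DG + anti-PD-L1 over 2DG. Equal weight per cell gave 2 for 2DG over control, and for anti-PD-L1 over control 10 CPM added gave 1 and leaving out cycling cells 6. Log2 ratios of called genes reversed in 3 cases: Gzmc for 2DG over control without the highest cells (−0.061), and for 2DG + anti-PD-L1 over 2DG without the deepest cells Gzmd (0.59) and Gzmg (0.028). The cause was not tested. Between classes, DESeq2 called 1 member for CD8 T against gamma-delta T cells, and no filter on low counts called 9 there and 9 for the CD8 T subsets. The other counts with all libraries in stayed within 1.5 times. Some counts for CD8 T against NK and against gamma-delta T moved further when 1 library was left out. With 1 library left out the members called ranged from 5 to 7 for CD8 T against NK, 1 to 2 for CD8 T against gamma-delta T, 4 to 4 for CD8 T against CD4 T, 4 to 5 for CD4 T against Treg, 4 to 5 for NK against gamma-delta T and 3 to 6 for the subsets. The CD8 T against NK count was 5 without 2FF and without anti-PD-L1. Of 640 fold changes of single members, 29 lost their call and 11 gained one, and no called value reversed. Changes of sign in values that were not called were not counted. Such changes occurred, as for Gzma between CD4 T and Treg cells (−0.26 to 0.64 with 1 library left out). No paired analysis was possible because each group has 1 replicate. The control library, with 121 CD8 T and 12 gamma-delta T cells, limits every ratio to control.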

Other observations

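Gzmb and Gzmk were also found together in CD4 T cells. Gzmb was detected in 14% (control) to 31.4% (2FF + anti-PD-L1) of the CD4 T cells of a library with a Gzmk UMI. Among those without it the shares were 7.41%, 12.2%, 10.5%, 8.18%, 8.01% and 12.5% in the library order of the report, lower in 6 of 6 libraries, with Clopper-Pearson intervals that did not overlap in 3 of them (2DG, anti-PD-L1 and 2FF + anti-PD-L1). The cells with Gzmk were the deeper ones in each library, with median UMIs of 5454 to 8350 against 5236 to 6930. Whether depth has a part in the difference was not tested.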
